A study of Rattus norvegicus and Bos taurus with 6 samples.

Results

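10 genes that control the use of pyruvate and glucose were followed in single-nucleus RNA-seq libraries of rat and cow fat. They are Pc, Pdk1, Pdk2, Pdk4, Pdha1, Hk2, Pfkfb3, Ldha, Ldhb and Slc16a1, 10 of the 25629 genes in the 10x Genomics file, and they were matched by symbol in any case. Pc was chosen because it led a group of adipocytes in mesenteric perivascular fat on the 10x Genomics platform, and the others are genes of the same pathway whose values in these libraries were known when they were chosen. The contrast of adipocyte with other nuclei therefore helped to choose the genes, and its values are given as a description with no test. All 10 genes were found in the 10x Genomics file and 9 in each Parse library, where no gene was named Ldha.

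The study tested ways to isolate nuclei from fat, and each tissue was measured in 1 library. The rat tissues came from normal male Dahl salt-sensitive rats (strain SS/HsdMcwiCrl, Charles River) housed at 22 °C and 50% humidity. They were mesenteric perivascular fat (mesPVAT), retroperitoneal (RP) fat, perivascular fat of the thoracic aorta (taPVAT) and subscapular brown fat (BAT). The cow tissue was subcutaneous white fat (WAT) from the flank of normal lactating female Holstein cows kept in tie-stalls. All tissues were snap frozen, the labels name no treatment, and neither the age of the animals nor the number of animals behind a library is given in the sources used here. mesPVAT was run on the 10x Genomics 3' kit, which captures nuclei in droplets. mesPVAT was run again, with the other 4 tissues, on the Parse kit, which labels RNA in fixed nuclei by repeated pooling and splitting. Platform, batch, preparation and gene annotation differ together between these and cannot be told apart. Preparation also differed among the Parse tissues. The study spun taPVAT homogenates more slowly than those of rat and cow white fat and names no speed for BAT. It passed only cow samples through its finest filter. With 1 library per condition no test between conditions was made, and every interval below is a 95% counting interval that says nothing of the spread between animals.

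Pyruvate stands at a branch point. The pyruvate dehydrogenase complex, of which Pdha1 encodes a catalytic subunit, turns it into acetyl-CoA for the citric acid cycle, and the kinases Pdk1, Pdk2 and Pdk4 switch the complex off by phosphorylating it. Pc, pyruvate carboxylase, turns pyruvate into oxaloacetate instead, which in fat refills the citric acid cycle and serves lipid synthesis and the making of glycerol for triglycerides. Upstream, Hk2 traps glucose as glucose-6-phosphate, and Pfkfb3 makes fructose-2,6-bisphosphate, the strongest activator of glycolytic phosphofructokinase. Ldha and Ldhb are the subunits of lactate dehydrogenase, which interconverts pyruvate and lactate, and Slc16a1 (MCT1) carries both across membranes. Brown adipocytes burn fatty acids and glucose to make heat through the mitochondrial protein Ucp1, whereas white adipocytes mainly store and release lipid.

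The libraries held 2297 to 5887 nuclei each and no barcode was shared between any of them. Each deposited barcode is called a nucleus here. In the Parse data of rat mesPVAT and RP fat the study saw no clear break between nuclei and background RNA. It also judged rat white fat to fall short of what reliable cell annotation needs. Some barcodes of these libraries may thus be background, and their part in the values was not tested. Total UMIs (unique molecular identifiers, each standing for 1 captured transcript) ranged from 845316 in RP fat to 16827260 in cow WAT, and the median nucleus held 161 UMIs in 10x mesPVAT, 346 in Parse mesPVAT, 213 in RP fat, 3530 in cow WAT, 1706 in BAT and 1246 in taPVAT. A level is given as CPM, the UMIs of a gene summed over nuclei and scaled to 1000000 UMIs of those nuclei, so that 1 UMI was worth 1.18 CPM in RP fat and 0.0594 CPM in cow WAT. Nuclei with at least 1 UMI of Plin1 or Adipoq, which encode a lipid droplet coat protein and the hormone adiponectin, are called adipocyte-marker nuclei. In the cow file no gene is named Adipoq, so Plin1 alone was used. They were 24.0% of nuclei in 10x mesPVAT, 23.2% in Parse mesPVAT, 10.5% in RP fat, 17.5% in cow WAT, 71.1% in BAT and 62.3% in taPVAT. In each library they held more UMIs than the other nuclei, with a median of 2188 against 897 in BAT and 8295 against 3122 in cow WAT.

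The marker lists set these libraries apart. All 7 adipocyte markers were found in the rat files and 5 of 7 in the cow file, and their summed level ran from 996 CPM in RP fat to 6013 CPM in BAT. The 5 brown adipocyte markers summed to 3425 CPM in taPVAT and 3924 CPM in BAT, against 67.9 CPM in 10x mesPVAT, 322 CPM in Parse mesPVAT, 438 CPM in RP fat and 117 CPM in cow WAT. Elovl3, 1 of these 5, was at 0 in 10x mesPVAT and in BAT. Markers of mesothelium, the sheet that lines the abdominal cavity, summed to 912 CPM in 10x mesPVAT and to 90.5 CPM in Parse mesPVAT. The 2 white rat Parse libraries are called mesPVAT and RP fat by their deposited labels, with 3028 and 2805 nuclei. The numbers of nuclei in both go against the text of the study, and so does the order of depth. The study gives RP fat a higher median of transcripts per cell than mesPVAT. Here the median nucleus held 213 UMIs in RP fat and 346 in Parse mesPVAT. It is thus uncertain whether these labels are right, which touches each value given for these 2 libraries.

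Summed over all nuclei, Pc had its highest level in 10x mesPVAT. Pc was chosen from its values in that library, so this rank is a description. Pdk1, Pdha1, Hk2 and Slc16a1 also had their highest level there, and levels were not equated across platforms. Pc stood at 621 CPM (95% exact Poisson interval 577 to 666) in 10x mesPVAT, 163 CPM (144 to 184) in Parse mesPVAT and 142 CPM (118 to 170) in RP fat. It stood at 81.8 CPM (77.6 to 86.3) in cow WAT, 298 CPM (284 to 311) in BAT and 355 CPM (339 to 372) in taPVAT. Only the intervals of Parse mesPVAT and RP fat overlapped. The deepest nuclei of 10x mesPVAT went against this order. Only 43 of its nuclei held at least 1000 UMIs, and with each thinned to 1000 UMIs 0 of them had a Pc UMI, which allows a share of up to 8.22% (exact binomial), beside 26.5% in taPVAT, 23.3% in BAT and 15.6% in Parse mesPVAT. With each nucleus thinned to 200 UMIs, which 2099 nuclei of 10x mesPVAT held, the shares were 11.7%, 5.72%, 5.04% and 2.70% in these 4 libraries. In adipocyte-marker nuclei the order was the same, with 919 CPM (825 to 1021) in 10x mesPVAT, 415 CPM (395 to 435) in taPVAT, 341 CPM (326 to 357) in BAT, 308 CPM (266 to 354) in Parse mesPVAT, 218 CPM (142 to 319) in RP fat and 151 CPM (142 to 160) in cow WAT. Here the intervals of BAT and Parse mesPVAT, of Parse mesPVAT and RP fat, and of RP fat and cow WAT overlapped. On GRCr8, the rat build that RefSeq gives, Pc lies at chr1:211228708-211327792.

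Against the other nuclei of the same library, Pc was higher in the adipocyte-marker nuclei of all 6 libraries. The ratio of the 2 levels was 7.245 (95% counting interval 5.37 to 10.0) in BAT, where the other nuclei had 47.1 CPM. It was 4.41 (3.56 to 5.52) in taPVAT, 4.38 (3.32 to 5.82) in Parse mesPVAT and 4.32 (3.82 to 4.89) in cow WAT. It was lowest in 10x mesPVAT, at 1.88 (1.62 to 2.17), and in RP fat, at 1.68 (1.05 to 2.62). Adipocyte markers not used for sorting also had low ratios in 10x mesPVAT. They were 1.51 for Pparg, 1.55 for Plin4, 1.64 for Lipe, 1.84 for Dgat2 and 2.12 for Cidec. In RP fat they were 1.35, 2.77, 2.72, 2.38 and 2.39 in the same order. In 10x mesPVAT 3766 of the 4474 other nuclei were given no class, for too few marker UMIs or a tie between classes. Their Pc level was 624 CPM (565 to 688). The nuclei given a stromal, endothelial, immune or mesothelial class there had 34.3 to 114 CPM. When the comparison in 10x mesPVAT was limited to other nuclei with a marker of another class, the ratio was 3.15, and among nuclei with at least 500 UMIs it was 3.41. With every nucleus thinned to 200 UMIs before sorting, the ratio fell below 2-fold in both brown depots, to 1.59 (1.12 to 2.24) in BAT and 1.83 (1.32 to 2.52) in taPVAT.

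**Figure D1:**
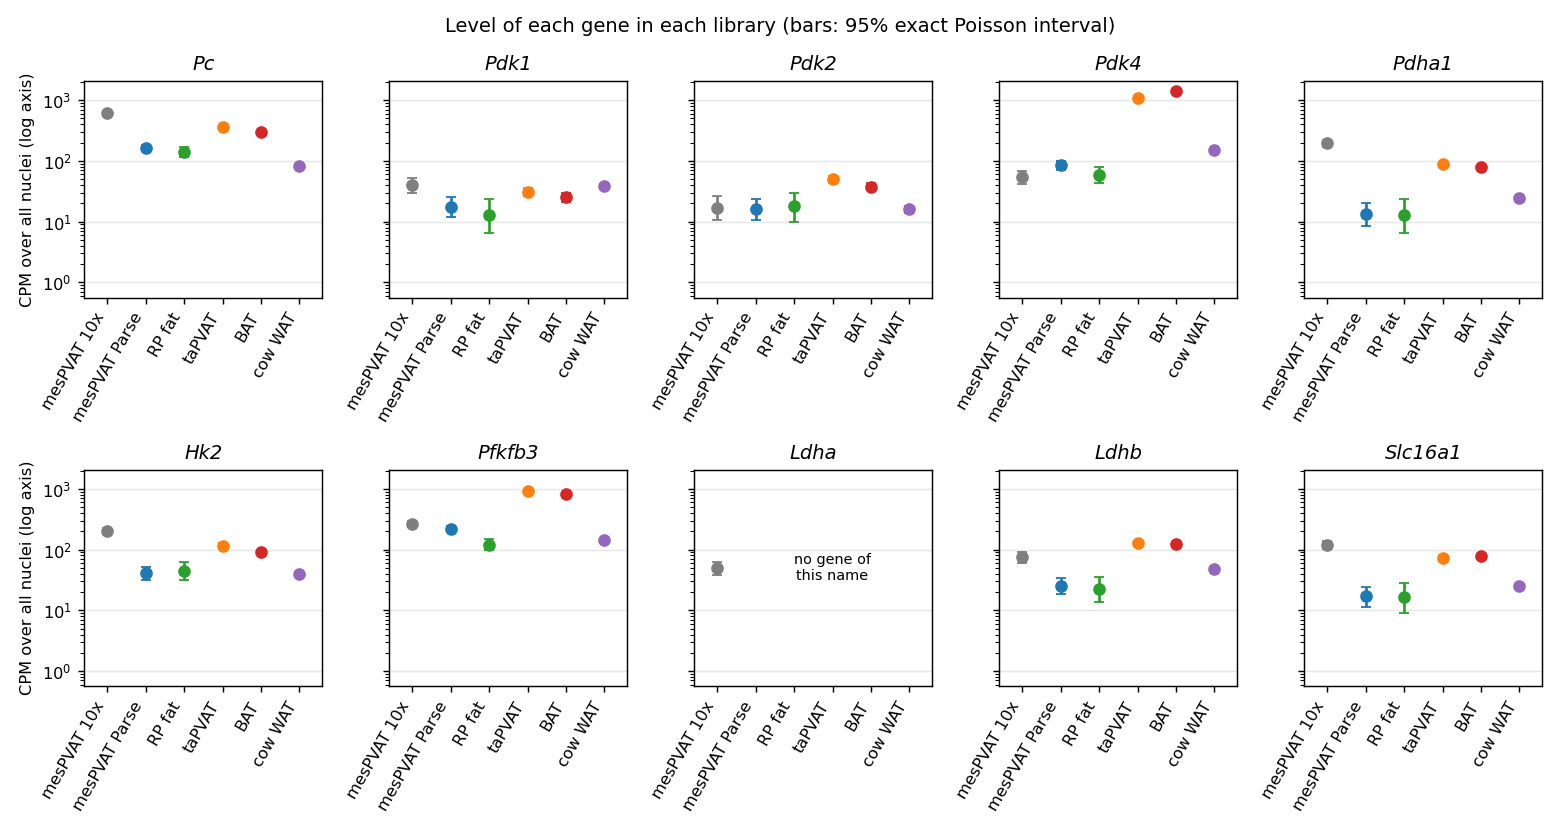
Level of each of the 10 genes over all nuclei of each library, in CPM on a log axis, with 95% exact Poisson intervals; mesPVAT 10x is the 10x Genomics library and the others are Parse libraries. Pdk4 stood at 1083 CPM in taPVAT and 1389 CPM in BAT and at 149 CPM or less elsewhere. Pc, at 621 CPM, Pdk1, Pdha1, Hk2 and Slc16a1 were highest in 10x mesPVAT, and Ldha has a point only in the file that names it.

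Pdk4 was the member that differed most between depots. Over all nuclei it stood at 1389 CPM (1360 to 1418) in BAT and 1083 CPM (1055 to 1112) in taPVAT. In the white depots it stood at 85.1 CPM (71.6 to 100.4) in Parse mesPVAT, 59.1 CPM (43.9 to 77.98) in RP fat, 53.3 CPM (41.2 to 67.9) in 10x mesPVAT and 149 CPM (143 to 155) in cow WAT. The intervals of the 3 white rat libraries overlapped, except that those of the 2 mesPVAT libraries did not, and the intervals of BAT, taPVAT and cow WAT overlapped no other. At least 1 Pdk4 UMI was found in 60.8% of BAT nuclei, 47.7% of taPVAT nuclei and 1.07% of 10x mesPVAT nuclei, shares that also rise with depth. Levels were also taken over the portions of a library, each the nuclei of 1 well and sublibrary. Pdk4 ran from 1030 to 1110 CPM in taPVAT (6 portions), 1104 to 1516 CPM in BAT (6) and 114 to 188 CPM in cow WAT (4). It ran from 52.6 to 107 CPM in Parse mesPVAT (4) and 22.2 to 82.2 CPM in RP fat (4). Whether the wells of a library held the same animals is not given. In BAT well A2 had 1514 and 1516 CPM in its sublibraries, and well A3 had 1151 and 1104 CPM. The portions of the brown depots stayed above all those of the other Parse libraries. Those of Parse mesPVAT and RP fat overlapped, as did those of BAT and taPVAT. The rat gene lies at chr4:34558327-34568329 on GRCr8.

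The direction of Pdk4 between adipocyte-marker and other nuclei was not the same in every library. In BAT it stood at 1597 CPM (1563 to 1631) in adipocyte-marker nuclei and 191 CPM (164 to 221) in the others, a ratio of 8.38 (7.22 to 9.78), and in taPVAT at 1279 CPM and 222 CPM, a ratio of 5.76 (5.02 to 6.64). In 10x mesPVAT the ratio was 2.03 (1.21 to 3.38), from 31 and 35 UMIs. In RP fat it was 0.990 (0.376 to 2.22), from 7 and 43 UMIs. In Parse mesPVAT Pdk4 was lower in the adipocyte-marker nuclei, at 66.5 CPM against 97.0 CPM, a ratio of 0.685 (0.467 to 0.991). Ucp1 moved with it in that library, at 37.1 CPM in the adipocyte-marker nuclei and 80.2 CPM in the others, and the part of these brown adipocyte transcripts in the Pdk4 difference was not tested. The nuclei of Parse mesPVAT with no class had 129 CPM of Pdk4 and 113 CPM of Ucp1. Shares of nuclei with a Pdk4 UMI at equal depth ran the other way in this library. At 1000 UMIs they were 6.91% (3.73 to 11.5) of adipocyte-marker and 3.03% (0.832 to 7.58) of other nuclei. At 200 UMIs they were 2.43% (1.40 to 3.92) and 2.16% (1.56 to 2.93), and the intervals overlapped at each depth.

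In cow WAT Pdk4 was lower in adipocyte-marker nuclei, at 90.9 CPM (83.9 to 98.4), than in the others, at 188 CPM (179 to 197), a ratio of 0.484 (0.441 to 0.530). These adipocyte-marker nuclei were 17.5% of the library, a larger share than the study annotated as adipocytes. Of the 401, 259 met the study's limits on nuclei and only 8 held no marker UMI of another class, so the set may be mixed. The highest Pdk4 levels were in the vascular classes. Nuclei with most UMIs from blood endothelial markers (547 nuclei) had 276 CPM (258 to 294.5), and those with most UMIs from pericyte and smooth muscle markers (250 nuclei) had 279 CPM (248 to 313). Immune-marker nuclei had 144 CPM (126 to 164), and stromal progenitor-marker nuclei had 105 CPM (94.7 to 117), an interval that overlapped that of the adipocyte-marker nuclei. The lipid droplet gene Plin4 stood at 4.78% of its adipocyte-marker level in the endothelial nuclei and 3.65% in the pericyte and smooth muscle nuclei, and Cidec, which enlarges lipid droplets, at 4.88% and 0.841%. With each nucleus thinned to 1000 UMIs, 8.23% of the adipocyte-marker and 12.7% of the other nuclei of cow WAT had a Pdk4 UMI. Unthinned, 38.9% of the adipocyte-marker nuclei and 45.5% of the endothelial nuclei had one.

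BAT showed the reverse order. There blood endothelial-marker nuclei (374 nuclei) had 163 CPM (128 to 203) of Pdk4, 10.2% of the adipocyte-marker level, and pericyte and smooth muscle-marker nuclei had 138 CPM (92.0 to 200.1). In the same endothelial nuclei Ucp1, a gene of brown adipocytes, stood at 9.01% of its adipocyte-marker level, Plin4 at 13.7%, Pc at 11.1% and Pfkfb3 at 13.9%. The part of free RNA in these levels was not tested. Endothelial-marker nuclei of taPVAT held 13.6% of the adipocyte-marker level of Pdk4 and 8.17% of that of Ucp1. Pdha1 and Pdk1, in contrast, stood at 77.7% and 88.7% of the adipocyte-marker level in the endothelial nuclei of BAT.

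**Figure D2:**
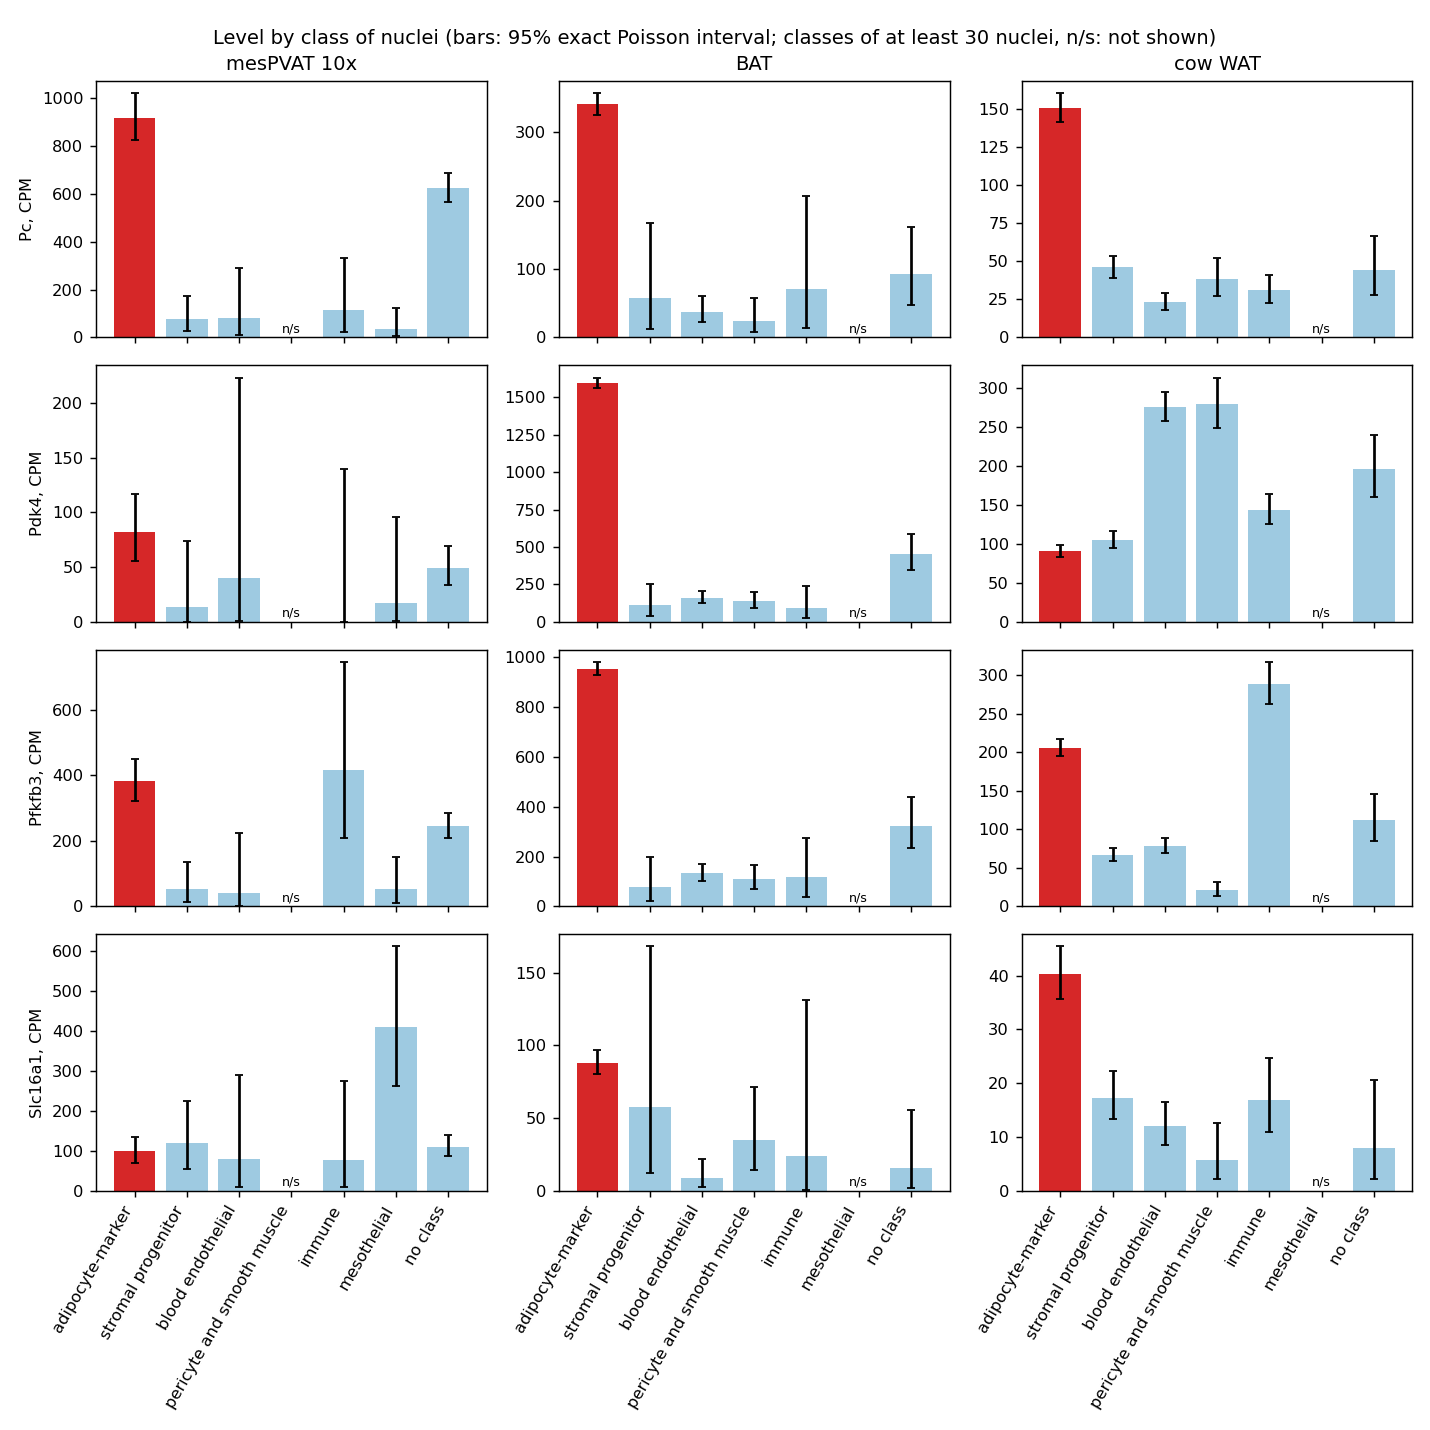
Level in CPM (linear axes from 0) of Pc, Pdk4, Pfkfb3 and Slc16a1 in adipocyte-marker nuclei (red) and in nuclei grouped by the class with the most marker UMIs (blue), for 3 libraries, with 95% exact Poisson intervals; classes with fewer than 30 nuclei are not shown (n/s). Pdk4 was highest in adipocyte-marker nuclei of BAT (1597 CPM) and in vascular classes of cow WAT (276 and 279 CPM), and Slc16a1 was highest in mesothelial-marker nuclei of 10x mesPVAT (411 CPM).

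Pdk2 was the other kinase with a higher level in the brown depots, at 49.4 CPM (43.5 to 55.9) in taPVAT and 37.4 CPM (32.7 to 42.4) in BAT, against 15.9 to 17.7 CPM in the other 4 libraries. Its ratio of adipocyte-marker over other nuclei was 3.92 (2.09 to 8.29) in BAT, 3.05 (1.18 to 8.20) in 10x mesPVAT, 2.50 (1.60 to 4.12) in taPVAT, 1.63 (1.28 to 2.09) in cow WAT and 1.45 (0.628 to 3.33) in Parse mesPVAT. Pdk1, the kinase best known as a target of hypoxia signalling, varied less. It stood at 39.6 CPM (29.3 to 52.3) in 10x mesPVAT, 38.5 CPM (35.6 to 41.6) in cow WAT, 30.8 CPM (26.2 to 36.0) in taPVAT, 25.2 CPM (21.4 to 29.4) in BAT, 17.5 CPM (11.7 to 25.1) in Parse mesPVAT and 13.0 CPM (6.50 to 23.3) in RP fat. Its ratios between adipocyte-marker and other nuclei lay between 0.826 and 1.36 in the 5 libraries with enough UMIs, and each interval included 1. In cow WAT Pdk1 was highest in immune-marker nuclei, at 81.5 CPM (67.9 to 97.0) against 41.4 CPM (36.7 to 46.5) in adipocyte-marker nuclei.

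The make-up of the kinase transcripts differed accordingly. Among the UMIs of Pdk1, Pdk2, Pdk3 and Pdk4 in adipocyte-marker nuclei, Pdk4 held 95.8% (95.4 to 96.2, exact binomial) in BAT and 93.4% (92.7 to 94.0) in taPVAT. It held 55.1% (43.4 to 66.4) in Parse mesPVAT, 54.4% (40.7 to 67.6) in 10x mesPVAT, 53.8% (25.1 to 80.8) in RP fat and 51.5% (48.6 to 54.3) in cow WAT. The intervals of Parse mesPVAT and RP fat overlapped and neither reached those of the brown depots. Those of 10x mesPVAT and cow WAT also lay below the brown intervals, but on another platform or in another species. Counts were not corrected for transcript length, so a share cannot be compared between kinases. Nor is it comparable across platforms or species, where capture of each gene may differ. Over all nuclei, the Pdk4 share was 44.6% in 10x mesPVAT and 62.7% in Parse mesPVAT. In the other nuclei the Pdk4 share was 82.8% in BAT, 80.5% in taPVAT and 68.8% (67.1 to 70.6) in cow WAT, where it was above that of the adipocyte-marker nuclei. Pdk3, a kinase of the wider pathway list that is named only to complete the family and after its values were seen, stood at 30.9 CPM in cow WAT and between 3.01 and 16.9 CPM in the rat libraries.

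**Figure D3:**
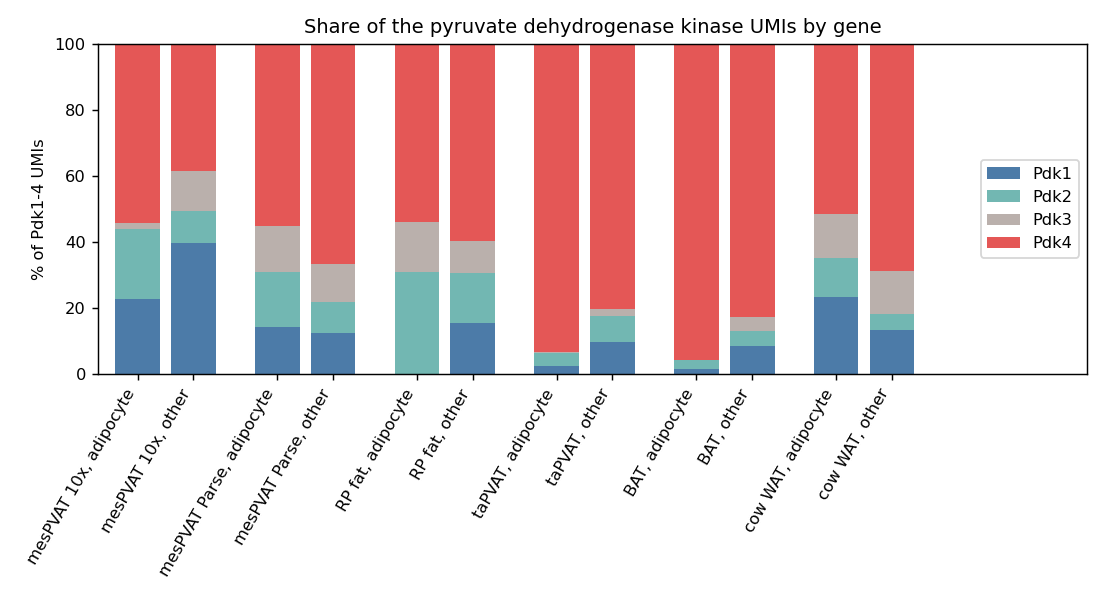
Share of the UMIs of the 4 pyruvate dehydrogenase kinase genes that fell to each gene, in %, in adipocyte-marker nuclei and in the other nuclei of each library. Pdk4 took 93.4% in taPVAT and 95.8% in BAT adipocyte-marker nuclei and between 51.5% and 55.1% in those of the white depots, of which RP fat rests on 13 UMIs.

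Pdha1, the target of these kinases, stood at 193 CPM (169 to 219) in 10x mesPVAT, 87.3 CPM (79.3 to 95.7) in taPVAT, 78.3 CPM (71.6 to 85.6) in BAT, 24.3 CPM (22.0 to 26.8) in cow WAT, 13.3 CPM (8.32 to 20.1) in Parse mesPVAT and 13.0 CPM (6.50 to 23.3) in RP fat. Between adipocyte-marker and other nuclei it differed by less than 2-fold in each library with enough UMIs. The ratio was 1.93 (1.58 to 2.36) in cow WAT, 1.56 (0.614 to 3.97) in Parse mesPVAT, 1.11 (0.834 to 1.46) in 10x mesPVAT, 1.36 (1.03 to 1.83) in BAT and 1.52 (1.15 to 2.04) in taPVAT. Mesothelial-marker nuclei of 10x mesPVAT had 343 CPM (209 to 529) of Pdha1, from 20 UMIs.

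Pfkfb3 was also highest in the brown depots. It stood at 919 CPM (893 to 945) in taPVAT, 837 CPM (814 to 860) in BAT, 261 CPM (233 to 291) in 10x mesPVAT, 216 CPM (194 to 240) in Parse mesPVAT, 144 CPM (138 to 150) in cow WAT and 121 CPM (98.4 to 146) in RP fat. The intervals of the 2 mesPVAT libraries overlapped, as did those of cow WAT and RP fat. The ratio of adipocyte-marker over other nuclei was 6.15 (5.22 to 7.31) in BAT, 6.52 (5.56 to 7.69) in taPVAT and 2.98 (2.39 to 3.74) in Parse mesPVAT. It was 2.02 (1.86 to 2.19) in cow WAT, 1.84 (1.47 to 2.30) in 10x mesPVAT and 1.39 (0.799 to 2.31) in RP fat, where the intervals reached below 2. In cow WAT the highest class was the immune-marker nuclei (269 nuclei), with 289 CPM (263 to 317) against 205 CPM (195 to 217) in adipocyte-marker nuclei. In 10x mesPVAT the immune-marker nuclei had 417 CPM (208 to 746), from 11 UMIs, and 383 CPM (323 to 450) was found in adipocyte-marker nuclei.

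Hk2 stood at 202 CPM (178 to 229) in 10x mesPVAT, 116 CPM (107 to 126) in taPVAT, 91.2 CPM (83.9 to 98.9) in BAT, 45.0 CPM (31.8 to 61.7) in RP fat, 41.0 CPM (31.9 to 52.0) in Parse mesPVAT and 40.0 CPM (37.0 to 43.1) in cow WAT. The last 3 intervals overlapped. Its ratio of adipocyte-marker over other nuclei was highest in BAT, at 6.97 (4.12 to 12.8), where the other nuclei held 14 UMIs. It was 2.53 (1.88 to 3.46) in taPVAT, 2.52 (1.51 to 4.29) in Parse mesPVAT, 2.20 (1.88 to 2.57) in cow WAT and 2.01 (1.56 to 2.60) in 10x mesPVAT, with 1.14 (0.390 to 2.77) in RP fat. Immune-marker nuclei of cow WAT had 62.1 CPM (50.3 to 75.8) of Hk2 and adipocyte-marker nuclei 59.2 CPM (53.6 to 65.3).

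**Figure D4:**
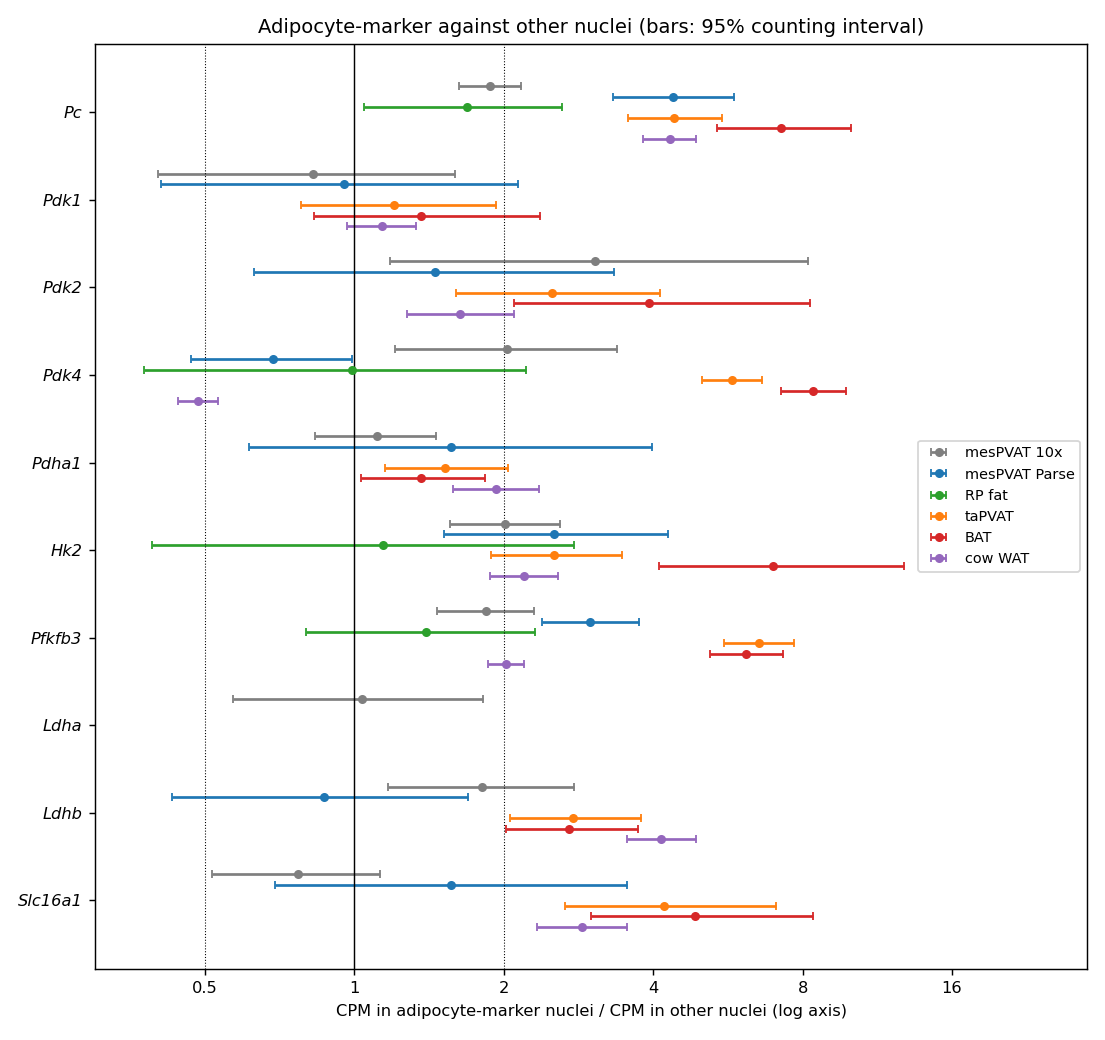
Ratio of the level in adipocyte-marker nuclei to that in the other nuclei of the same library, on a log axis, with 95% counting intervals; points are drawn where both sets together held at least 20 UMIs, and dotted lines mark 2-fold. Pdk4 ranged from 0.484 in cow WAT to 8.38 in BAT, and Pdk1 stayed between 0.826 and 1.36.

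Ldhb, the subunit that predominates in oxidative tissues, stood at 126 CPM (117 to 136) in taPVAT, 124 CPM (115 to 133) in BAT, 75.1 CPM (60.7 to 92.1) in 10x mesPVAT, 47.2 CPM (44.0 to 50.6) in cow WAT, 25.4 CPM (18.3 to 34.3) in Parse mesPVAT and 22.5 CPM (13.5 to 35.1) in RP fat. Among the libraries with at least 20 UMIs its split was widest in cow WAT, with 86.2 CPM (79.4 to 93.5) in adipocyte-marker nuclei and 20.8 CPM (18.0 to 23.8) in the others, a ratio of 4.15 (3.54 to 4.89). The ratio was 2.76 (2.06 to 3.77) in taPVAT, 2.71 (2.02 to 3.72) in BAT, 1.80 (1.17 to 2.77) in 10x mesPVAT and 0.868 (0.429 to 1.69) in Parse mesPVAT. In RP fat it was 5.48 (1.97 to 15.0), from only 9 and 10 UMIs. Ldha was named only in the 10x Genomics file, where it stood at 49.3 CPM (37.7 to 63.3) from 61 UMIs, with a ratio of 1.03 (0.568 to 1.82). Its identifier there, ENSRNOG00000013009, carries the name Ldhal1 in the rat Parse files. Under that name it stood at 14.5 CPM in Parse mesPVAT, 28.4 CPM in RP fat, 90.2 CPM in taPVAT and 100.03 CPM in BAT. RefSeq lists Ldhal1 as a gene of its own, so these values are uncertain and are not read as Ldha.

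Slc16a1, the lactate and pyruvate carrier, stood at 119 CPM (100.4 to 140) in 10x mesPVAT, 77.9 CPM (71.1 to 85.1) in BAT, 72.5 CPM (65.3 to 80.3) in taPVAT, 24.7 CPM (22.4 to 27.2) in cow WAT, 16.9 CPM (11.2 to 24.4) in Parse mesPVAT and 16.6 CPM (9.05 to 27.8) in RP fat. It was higher in the adipocyte-marker nuclei of BAT, with a ratio of 4.85 (3.00 to 8.39), of taPVAT, with 4.20 (2.65 to 7.07), and of cow WAT, with 2.87 (2.33 to 3.54). A single nucleus of cow WAT held 39 of the 416 Slc16a1 UMIs there, which the counting interval does not allow for. In 10x mesPVAT the ratio was 0.769 (0.515 to 1.13). The highest class there was the mesothelial-marker nuclei (174 nuclei, 24 UMIs), with 411 CPM (263 to 612) against 98.3 CPM (69.2 to 135) in adipocyte-marker nuclei, and the intervals did not overlap. In Parse mesPVAT, where the mesothelial markers summed to 90.5 CPM, 11 nuclei were given that class.

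Counted as genes at least 2-fold apart, with at least 20 UMIs in both sets of nuclei together, 7 of 9 members were higher in adipocyte-marker nuclei of taPVAT, where 9.86% of all genes compared were, and 7 of 9 in BAT, where 12.4% were. In cow WAT 5 of 9 were higher and 1, Pdk4, was lower, against 5.66% and 9.16% of all genes. In 10x mesPVAT 3 of 10 were higher (Pdk2, Pdk4 and Hk2, background 2.42%), in Parse mesPVAT 3 of 9 (Pc, Hk2 and Pfkfb3, background 3.38%) and in RP fat 0 of the 4 with enough UMIs (background 5.58%). No member was 2-fold lower in a rat library, where 10.4% (10x mesPVAT), 8.39% (Parse mesPVAT), 12.3% (RP fat), 29.2% (taPVAT) and 26.1% (BAT) of all genes compared were. The median ratio of the members was 4.85 in BAT, 2.76 in taPVAT, 2.02 in cow WAT, 1.82 in 10x mesPVAT, 1.56 in Parse mesPVAT and 1.27 in RP fat, beside 0.814, 0.744, 0.898, 0.951, 0.862 and 0.924 over all genes compared. As these genes were chosen with this contrast in view, nothing is read from the counts.

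The split was also made at lower depth. When every nucleus was thinned to 200 UMIs before the adipocyte-marker nuclei were chosen, only 810 nuclei of taPVAT and 918 of BAT kept a marker UMI, against 1687 and 1918 at full depth, and 0 of 8 members in taPVAT and 2 of 8 in BAT were 2-fold higher. The share of all genes past 2-fold is given only at full depth, so nothing is read from these counts. Nuclei were also sorted at full depth and then thinned to 1000 UMIs. In BAT 70.2% of adipocyte-marker and 13.0% of other nuclei had a Pdk4 UMI, 48.2% and 10.9% a Pfkfb3 UMI, 27.3% and 3.93% a Pc UMI, and 9.39% and 0.906% a Hk2 UMI. In cow WAT 12.7% and 3.11% had a Pc UMI and 14.2% and 7.70% a Pfkfb3 UMI, whereas for Slc16a1 the shares were 1.75% (0.705 to 3.56) and 1.21% (0.771 to 1.81), with overlapping intervals. In RP fat, where 21 adipocyte-marker and 67 other nuclei held 1000 UMIs, the shares ran the other way with wide intervals, at 4.76% (0.120 to 23.8) and 10.4% (4.30 to 20.3) for Pc and 4.76% (0.120 to 23.8) and 7.46% (2.47 to 16.6) for Pfkfb3. In 10x mesPVAT 0 of 15 and 0 of 28 nuclei had a Pc UMI at this depth.

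A list of 57 other genes of glycolysis, pyruvate and citrate metabolism was described in the same way. Of those with enough UMIs, 24 of 46 were at least 2-fold higher and 4 lower in adipocyte-marker nuclei of BAT, against 12.4% and 26.1% of all genes. In taPVAT 21 of 47 were higher and 6 lower, against 9.86% and 29.2%. In cow WAT 18 of 54 were higher and 3 lower, against 5.66% and 9.16%. In 10x mesPVAT 2 of 37 were higher and 2 lower, against 2.42% and 10.4% of all genes. In Parse mesPVAT the counts were 4 and 5 of 36, against 3.38% and 8.39%. In RP fat they were 4 and 2 of 25, against 5.58% and 12.3%. The list was chosen with earlier results known, so nothing is read from the counts of its genes. The median ratio of the genes compared was 2.07 in BAT, 1.61 in taPVAT, 1.28 in cow WAT, 1.14 in 10x mesPVAT and in RP fat, and 0.888 in Parse mesPVAT.

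3 genes of this list are named by the rule set for it. Gpd1, which makes glycerol-3-phosphate from a glycolytic intermediate, was the gene that passed 2-fold in all 6 libraries, with ratios of 2.08 (1.69 to 2.56) in 10x mesPVAT, 2.62 (1.98 to 3.50) in Parse mesPVAT, 2.97 (1.68 to 5.12) in RP fat, 11.2 (9.78 to 12.8) in cow WAT, 7.22 (6.18 to 8.49) in BAT and 4.83 (4.24 to 5.53) in taPVAT. Pck1, which draws on oxaloacetate to make glycerol in fat, had ratios of 1.70, 5.99, 2.97, 15.3, 7.55 and 5.68 in the same order. Its level in adipocyte-marker nuclei ran from 536 CPM in RP fat to 3416 CPM in 10x mesPVAT among the rat libraries and was 28.9 CPM in cow WAT. Pfkfb1, a relative of Pfkfb3, had ratios of 1.63, 4.06, 1.29, 10.1, 10.1 and 12.5, again in this order.

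Between depots, the adipocyte-marker nuclei alone were compared, so that the other nuclei did not enter. A cut at 1 marker UMI can leave these sets mixed to different degrees. Pparg, an adipocyte marker not used for sorting, had ratios over other nuclei of 1.07 in Parse mesPVAT and 1.35 in RP fat. Its ratios were 3.61 in taPVAT and 2.50 in BAT. Those of Plin4 were 9.09, 2.77, 3.99 and 6.82 in this order. The part of such mixing in the differences between depots was not tested. In taPVAT 7 of 9 members were at least 2-fold higher than in Parse mesPVAT and none was lower, where 14.4% of all genes were higher and 35% lower. In BAT 5 of 9 were higher than in RP fat and none was lower, where 15.8% of all genes were higher and 35.6% lower. The members were chosen with their values in these libraries known, so nothing is read from either count. Pdk4 had the largest ratio in both pairs, 19.2 (14.3 to 26.6) for taPVAT over Parse mesPVAT and 27.2 (13.2 to 67.7) for BAT over RP fat. Pfkfb3 had ratios of 3.00 (2.63 to 3.43) and 6.00 (3.84 to 9.97), and Pdha1 of 5.48 (3.03 to 11.1) and 3.24 (1.10 to 15.8). For Slc16a1 the ratios were 3.90 (2.30 to 7.21) and 10.5 (1.88 to 417), the latter resting on 1 UMI in RP fat. Hk2 was just past 2-fold in both pairs, with 2.02 (1.47 to 2.83) and 2.08 (0.948 to 5.68). Ldhb passed it only over Parse mesPVAT, with 6.16 (3.71 to 11.1) against 1.81 (0.947 to 3.97) over RP fat, and so did Pdk2, with 2.77 (1.59 to 5.27) against 1.25 (0.482 to 4.64). Pdk1 had a ratio of 1.87 (1.01 to 3.83) over Parse mesPVAT, and RP fat held 0 UMIs of it in these nuclei, so that the ratio was at least 1.04 against a floor of 3 UMIs, with a lower counting limit of 0.836, and a higher level in BAT is not shown. For Pc the ratios were 1.35 (1.16 to 1.57) and 1.57 (1.07 to 2.40), under 2-fold in both pairs. The brown depots had the higher median depth, and its part in these differences was not tested. The part of barcodes that may be background was not tested either. As taPVAT was spun more slowly than mesPVAT, depot and preparation cannot be told apart in that pair.

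BAT and taPVAT were compared in the same way. None of the 9 members was 2-fold apart in their adipocyte-marker nuclei. Of all genes, only 1.2% were higher and 4.36% lower in BAT, so nothing is read from this count. Pdk4 was higher in BAT by a ratio of 1.25 (1.21 to 1.29), and Pc was higher in taPVAT, with a ratio of BAT over taPVAT of 0.823 (0.770 to 0.879). Ratios of the others lay between 0.755 for Pdk2 and 1.04 for Slc16a1. Over all nuclei, the portions of the 2 depots by well and sublibrary overlapped for Pdk4, with 1104 to 1516 CPM in BAT and 1030 to 1110 CPM in taPVAT. They overlapped for Pc as well, with 278 to 338 CPM and 315 to 388 CPM. The counting intervals do not cover this spread.

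The 2 libraries labelled mesPVAT, on 10x and on Parse, differed more than BAT and taPVAT did. The label of the Parse library is uncertain, so they may not be of the same depot. In adipocyte-marker nuclei 6 of 9 members were at least 2-fold higher in 10x than in Parse mesPVAT, and none was lower, where 27% of all genes were higher and 25.5% lower. As the members were chosen with these values known, nothing is read from this count. Pdha1 was apart by 12.2 (6.45 to 25.4), Hk2 by 4.78 (3.34 to 6.98), Ldhb by 4.69 (2.54 to 9.13), Slc16a1 by 4.54 (2.40 to 9.09), Pc by 2.99 (2.50 to 3.57) and Pdk1 by 2.03 (0.839 to 5.00). Pfkfb3 and Pdk4 were close, at 1.05 (0.849 to 1.301) and 1.24 (0.754 to 2.01). For Pc the ratio between platforms was above the 1.35 and 1.57 found between brown and white depots on Parse. Markers of the other cell types differed as well between these libraries, with 912 CPM and 90.5 CPM for mesothelium and 103 CPM and 892 CPM for pericytes and smooth muscle, and their part in the differences was not tested. The marker that picked the nuclei also differed. A Plin1 UMI was found in 668 of 1413 adipocyte-marker nuclei of 10x mesPVAT and in 665 of 702 of Parse mesPVAT. The rest were picked by Adipoq alone, and the part of this was not tested. The gene annotation differed too, with 25629 genes in the 10x file and 38697 in the Parse file. Its part in the differences was not tested either.

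Within the adipocyte-marker nuclei of the brown depots, those with and without a Ucp1 UMI were compared. In taPVAT 1234 nuclei had a Ucp1 UMI and 453 did not, and in BAT 1543 did and 375 did not. Pdk4 was the member most tied to Ucp1, at 1405 CPM against 420 CPM in taPVAT, a ratio of 3.35 (2.93 to 3.85), and at 1725 CPM against 482 CPM in BAT, a ratio of 3.58 (3.17 to 4.06). Pfkfb3 had ratios of 2.01 (1.79 to 2.26) and 2.17 (1.92 to 2.47). Slc16a1 had 1.76 (1.19 to 2.71) and 3.31 (2.01 to 5.83), and Ldhb 2.09 (1.51 to 2.97) and 1.85 (1.36 to 2.58). Pc differed less, with 1.32 (1.13 to 1.56) and 1.44 (1.21 to 1.73). Pdha1 had 1.17 (0.853 to 1.65) and 1.83 (1.23 to 2.84), and Hk2 1.25 (0.951 to 1.68) and 1.64 (1.17 to 2.35). The intervals of these genes thus included 1 in taPVAT but not in BAT for Pdha1 and Hk2. For Pdk1 and Pdk2 each interval included 1 in both depots. Nuclei with Ucp1 were deeper, with medians of 2302.5 against 968 UMIs in taPVAT and 2463 against 1133 UMIs in BAT, and the part of depth and of free RNA in these ratios was not tested. In 10x mesPVAT no adipocyte-marker nucleus had a Ucp1 UMI.

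**Figure D5:**
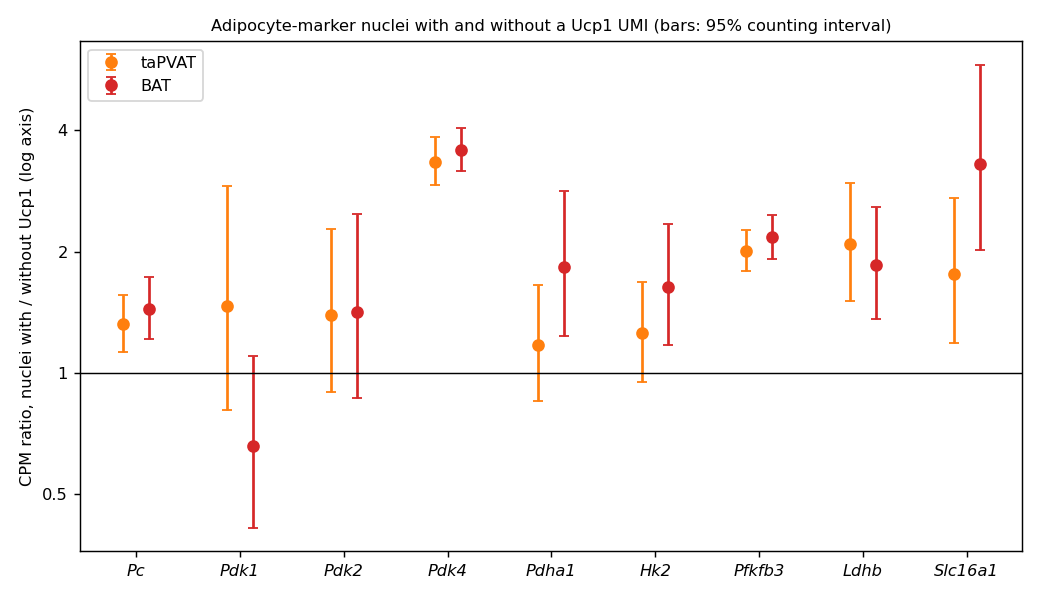
Ratio of the level in adipocyte-marker nuclei with at least 1 Ucp1 UMI to that in those with none, on a log axis with 95% counting intervals, in taPVAT and BAT. Pdk4 stood apart from 1 most clearly in both depots (3.35 and 3.58), and Pdk1 had an interval that included 1 in both.

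The promoters of the 3 members with the largest ratio of BAT over RP fat in adipocyte-marker nuclei (Pdk4, Slc16a1 and Pfkfb3) are shown, so that the letters before these genes can be compared. RefSeq gives a window of 300 bases, 250 before and 50 after the start, for 9 of the 10 members. The windows are from GRCr8, are written 5′ to 3′ on the strand of the gene, and have letters that match a searched motif in capitals. The window of Pdk4 is chr4:34568280-34568579 on the minus strand, that of Pfkfb3 is chr17:71944683-71944982 on the plus strand and that of Slc16a1 is chr2:194812410-194812709 on the plus strand. The last 2 lie inside the annotated span of their genes, downstream of the first annotated base.
Pdk4: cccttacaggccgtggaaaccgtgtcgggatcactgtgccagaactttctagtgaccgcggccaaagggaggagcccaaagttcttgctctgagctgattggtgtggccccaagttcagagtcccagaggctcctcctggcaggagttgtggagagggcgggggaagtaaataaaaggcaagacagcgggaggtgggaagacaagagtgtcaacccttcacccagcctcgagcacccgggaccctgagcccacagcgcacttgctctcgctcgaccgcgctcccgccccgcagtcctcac
Pfkfb3: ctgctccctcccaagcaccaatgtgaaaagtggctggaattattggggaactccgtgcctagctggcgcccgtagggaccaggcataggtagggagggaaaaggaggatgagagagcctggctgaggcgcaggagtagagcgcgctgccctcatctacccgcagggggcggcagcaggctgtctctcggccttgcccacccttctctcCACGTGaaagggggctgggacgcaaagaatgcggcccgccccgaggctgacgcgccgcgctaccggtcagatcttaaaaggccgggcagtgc
Slc16a1: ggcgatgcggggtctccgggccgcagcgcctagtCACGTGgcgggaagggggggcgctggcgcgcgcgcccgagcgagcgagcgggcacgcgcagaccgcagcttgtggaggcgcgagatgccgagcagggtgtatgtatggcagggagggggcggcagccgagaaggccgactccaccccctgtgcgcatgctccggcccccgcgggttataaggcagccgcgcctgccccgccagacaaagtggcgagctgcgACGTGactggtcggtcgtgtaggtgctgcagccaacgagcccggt

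5 motifs were searched on both strands. CACGTG, the E-box that the glucose-responsive factor ChREBP and others can bind, was in the windows of 4 of 9 members (Pdk2, Pfkfb3, Ldha and Slc16a1) and in 6.42% of all 33469 windows of this length. ACGTG, the core of the hypoxia response element, which lies within CACGTG, was in those 4 and in Pdk1, and in 19.3% of all windows. TGACGTCA, the cAMP response element, was in the window of Ldha alone and in 1.83% of all windows. TCAAGGTCA, a site of oestrogen-related receptors, and GTAAACA, a site of forkhead factors, were in none of the 9, beside 0.433% and 3.78% of all windows. The Pdk4 window held no match. A match is a description of the letters and not a bound site.

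Across the rat libraries, each split into adipocyte-marker and other nuclei, the genes whose levels followed each member most closely were sought among 8518 genes. The measure was the Pearson correlation of log2(CPM + 10) over 10 sets of nuclei, which share libraries and depth, and it is given as a description. For Pdk4 the closest were Ppp1r3b (0.984), Cidea (0.982) and Itpr2 (0.982), of which Cidea is also on the list of brown adipocyte markers. For Pfkfb3 they were Ddhd1 (0.986), Gpam (0.983) and Xrcc6 (0.977). For Pc they were Akr1e2 (0.973), Smoc1 (0.970) and Epb41l5 (0.966), and Pc itself was the second closest gene to Hk2 (0.960), between Tmem150a (0.968) and Ptprs (0.959). For Pdha1 they were R3hdm2 (0.993), Cox4i1 (0.991) and Pcbp2 (0.989), and for Slc16a1 Reep5 (0.982), Arrdc3 (0.982) and Sdc4 (0.978). For Ldhb they were Pxmp2 (0.971), Ctsd (0.969) and Ndufa10 (0.967). The kinases Pdk1, with Plaa (0.968), Cbfa2t2 (0.967) and Mia2 (0.965), and Pdk2, with Vps45 (0.941), Mrpl15 (0.931) and Hadh (0.926), had other closest genes than Pdk4.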

How the data were processed

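Nuclei of 5 rat libraries and 1 cow library were sequenced as single-nucleus RNA-seq. For the Parse libraries, the authors deposited UMI counts per gene and barcode, made with split-pipe on GRCr8 or ARS-UCD1.3 after splitting reads by species, from oligo-dT and random-hexamer primed cDNA of 2 sublibraries. For 10x mesPVAT the deposited UMI counts are those of barcodes called by Cell Ranger 7.1.0, with Rnor_6.0 named in the supplementary methods. Those methods give another isolation protocol, with a sort for DAPI-stained nuclei, than the labels of this library, and which one made the deposited file is not known. The submitters' processing notes also name FastQC and Scanpy. The counts are not normalized. Parse priming and 3' capture sample different parts of a transcript, so levels were not equated across platforms.

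Every deposited barcode was used, with no doublets called or removed. Counts were summed over sets of nuclei and divided by all UMIs of the set (CPM). Intervals are 95% exact Poisson for CPM and exact binomial for shares and for the ratio of 2 sets, and cover counting error only. A gene was compared with at least 20 UMIs in both sets together and called at 2-fold. A set with 0 UMIs was put at 3. Nuclei without Plin1 or Adipoq were put in the class whose markers had the most UMIs, with at least 2 and no tie. Thinning kept 200 or 1000 UMIs per nucleus, drawn without replacement (seed 20), and left out shallower nuclei. Identifiers were named from the files, and loci and promoters came from RefSeq on GRCr8. The members, the lists and the tests were chosen with earlier results of these data known. The genes named are the members, pathway genes past 2-fold in at least 4 of 5 rat libraries or among the 3 with the most UMIs, and the 3 genes most like each member with at least 100 UMIs, among genes with at least 200. The scripts were tested on simulated data. Python 3.11.15, numpy 2.4.6, scipy 1.17.1, pandas 2.3.3 and matplotlib 3.10.9 were used.

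Alternatives were another definition of adipocyte-marker nuclei, limits on UMIs per nucleus, the study's limits on nuclei, thinning, another total, each sublibrary, other filters on low counts, other nuclei with a marker of another class and, added after the data were seen, adipocyte-marker nuclei with no marker of another class.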

Additional observations from a re-analysis of the deposited data

Results flagged for a closer look

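The ratio of Pdk4 between adipocyte-marker and other nuclei lay on opposite sides of 1 in different libraries, which is why it is listed here. It was 2.03 in 10x mesPVAT, 5.76 in taPVAT and 8.38 in BAT, and 0.685 in Parse mesPVAT and 0.484 in cow WAT. The difference between libraries was not tested, since each condition has 1 library. In Parse mesPVAT the values rest on 43 and 98 UMIs. With nuclei of that library thinned to 1000 UMIs, the shares with a Pdk4 UMI ran the other way, with overlapping intervals.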

How the results depend on the processing

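No paired analysis was possible because each condition has 1 library and the results come from no test. No condition has a replicate to leave out. Of the alternative values, 141 of the main results and 573 of the others stayed within their counting interval or within 1.5 times the main count, while 31 and 211 moved. Depth limits what can be compared, as 1 UMI was worth 1.18 CPM in RP fat, where 5 of 9 members were not compared.

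Thinning each nucleus to 200 UMIs before sorting leaves fewer nuclei with a marker UMI by construction. It gave Pc ratios of 2.87 in Parse mesPVAT, 1.59 in BAT and 1.83 in taPVAT. In cow WAT, where 39 adipocyte-marker nuclei were left, the ratio was 2.76 (0.0667 to 17.1), from 22 UMIs in both sets together. Members at least 2-fold higher then numbered 0 of 8 in 10x mesPVAT and taPVAT, 2 of 3 in cow WAT and 2 of 8 in BAT, and members 2-fold apart in adipocyte-marker nuclei numbered 3 of 5 for BAT over RP fat, 3 of 5 for taPVAT over Parse mesPVAT and 3 of 4 for 10x over Parse mesPVAT, where 9 members each were compared at full depth. With at least 2 UMIs of Plin1 and Adipoq, the Pc ratio was 2.65 in RP fat and 5.13 in BAT, 2 members were higher in RP fat, and 3 were apart for BAT over RP fat. Nuclei with at least 500 UMIs gave Pc ratios of 3.41 in 10x mesPVAT and 5.92 in Parse mesPVAT. Other nuclei with a marker of another class gave 3.15 in 10x mesPVAT and 5 members higher. The study's limits on nuclei gave 3.78 in cow WAT and 3 members higher. In Parse mesPVAT sublibrary 1 gave a Pc ratio of 3.18 and sublibrary 2 gave 6.06, and sublibrary 2 of RP fat had 1 member higher. With no filter beyond 1 UMI, 3 members were higher in RP fat. Shares of all genes past 2-fold are given for the main setting alone. Nothing is therefore read from the counts of members under the alternatives.

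Adipocyte-marker nuclei with no marker of another class, a setting chosen after seeing the data, gave Pc ratios of 2.32 in 10x mesPVAT, 6.80 in Parse mesPVAT and 3.81 in cow WAT, with 5, 1 and 3 members higher in 10x mesPVAT, RP fat and cow WAT. Only 8 of 401 cow nuclei remained, and the counting interval of the Pc ratio there was 0.783 to 11.2. The ratio of Pfkfb3 in cow WAT turned to 0.873 (0.106 to 3.16). Apart from sorting fewer nuclei, the cause of these moves was not tested.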
